A study of Mus musculus with 12 samples.

Results

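Transcripts that hepatocytes are known for were followed in RNA from sorted dendritic cells of mouse liver, pancreas and duodenum. The set held 36 genes, taken from the deposited tables by their symbols, of 55401 genes in all. All 36 were found, and all 36 passed the filter on low counts that left 44624 genes for testing. The libraries came from migratory dendritic cells, which bring antigen to lymph nodes, of B6 mice aged 6 to 8 weeks, and the labels name no treatment. Liver, pancreas and duodenum gave 4 libraries each, and each library pooled the cells of 2 mice, so the libraries of a tissue were separate pools. The sort took live cells with CD45, CD11c, CD103 and high MHC class II, and left out cells with lineage markers or CD11b, which is the profile of conventional type 1 dendritic cells (cDC1). Hepatocytes lack CD45, but whether the sort left out all of their RNA was not tested.

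Hepatocytes make most plasma proteins. They secrete albumin, transferrin, the apolipoproteins of circulating lipoprotein particles, the chains of fibrinogen, protease inhibitors of the serpin family and, in mice, the major urinary proteins, small carriers of pheromones that pass through blood into urine. They also hold the urea cycle, gluconeogenesis and many cytochrome P450 enzymes. These genes are switched on in hepatocytes by a few factors, among them HNF4 and C/EBP proteins. Several of them are active elsewhere too, for example transferrin and the urea cycle enzyme argininosuccinate synthase in macrophages.

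Total estimated counts per library ran from about 220898000 to 356073000, and levels are given in TPM, a unit of transcript abundance scaled for gene length and library size. The summed TPM of 10 cDC1 markers, Irf8 and Clec9a the most abundant of them in liver, was 1647 to 1833 in liver, 1407 to 1582 in pancreas and 1329 to 1755 in duodenum. Some libraries carried more immunoglobulin transcripts than others of their tissue. The sum of 8 plasma cell genes was 1435 TPM in liver 2, against 97.0 to 108 in the other liver libraries. It was 1475 and 1699 TPM in pancreas 3 and 4, against at most 102 in pancreas 1 and 2, and 10929 to 16292 TPM in all duodenum libraries. Counts of calls are therefore also given without liver 2, pancreas 3 and pancreas 4.

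Most of the hepatocyte transcripts were higher in liver cDC1 than in cDC1 of the other tissues, at levels of a few TPM. The sum of the 34 genes other than Trf and Ass1 was 194, 140, 130 and 131 TPM in liver 1 to 4, against 17.1, 11.1, 9.90 and 12.7 in pancreas 1 to 4 and 8.81, 12.8, 8.94 and 10.2 in duodenum 1 to 4. For this sum, every liver library lay above every library of the other tissues. The mean of this sum was 11.7 times higher in liver than in pancreas and 14.6 times higher than in duodenum. As mean log2 ratios, that was 3.56 and 3.86 by TPM, and 2.77 and 2.99 by CPM, a unit scaled for library size and not for length. Trf and Ass1 were left out of the sum after their values were seen, because the pair was highest in pancreas. Over all 36 genes, the sum was 232 to 333 TPM in liver, 247 to 303 in pancreas and 37.4 to 44.2 in duodenum. Liver and pancreas overlapped in that sum. In bulk RNA, fewer cells that hold a transcript and less of it per cell cannot be told apart.

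In liver minus duodenum, edgeR's quasi-likelihood test called 7.32% of all 44624 genes at a Benjamini-Hochberg adjusted p under 0.05, 3.37% higher in liver and 3.95% lower. Of the 36 hepatocyte genes, 26 were called higher in liver and 0 lower, with a median log2 difference of 3.14, against 0.10 over all genes. Without liver 2, pancreas 3 and pancreas 4, 25 were called. The duodenum libraries, which held more plasma cell transcripts than those 3, stayed in. In liver minus pancreas, 1.11% of all genes were called, 0.426% higher and 0.681% lower. There 21 of the 36 were higher in liver, 2 were lower, and the median log2 difference was 2.94, against 0.01 over all genes. Without the same 3 libraries, 10 were called higher and 1 lower in that comparison. The calls of Ttr, Rbp4, Ahsg, Apoa1, Apoa2, Apoc3, Fgb, Fgg, Serpina1a, Serpina1b, Ambp and Ass1 ended. Fewer libraries of both tissues then remained, and the part of that in the lost calls was not tested. In pancreas minus duodenum, 7.7% of all genes were called, 3.76% higher and 3.94% lower. Only Trf and Ass1 of the 36 were called there, both higher in pancreas, and the median log2 difference was 0.28, against 0.09 over all genes. The comparisons share libraries, so their counts are not independent of each other. The 36 genes also include 4 Mup and 5 Serpina1 genes, close copies that can share reads, each counted as a gene of its own here and below.

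Counted by overlap of the libraries' TPM, 27 hepatocyte genes lay higher in every liver library than in every duodenum library, against 11.2% of all genes tested, and 0 lay lower, against 4.48%. In liver against pancreas, 23 lay higher without overlap, against 4.76% of all genes, and 2 lower, against 2.57%. In pancreas against duodenum, 3 lay higher, against 8.21% of all genes, and 0 lower, against 5.34%. Above 1 TPM in every library of a tissue were 23 of the 36 genes in liver, 4 in pancreas and 3 in duodenum. Below 1 TPM in every library were 7 in liver, 30 in pancreas and 30 in duodenum. Of the 432 values of the 36 genes in the 12 libraries, 8 were listed at 0, none of them in liver.

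**Figure D1:**
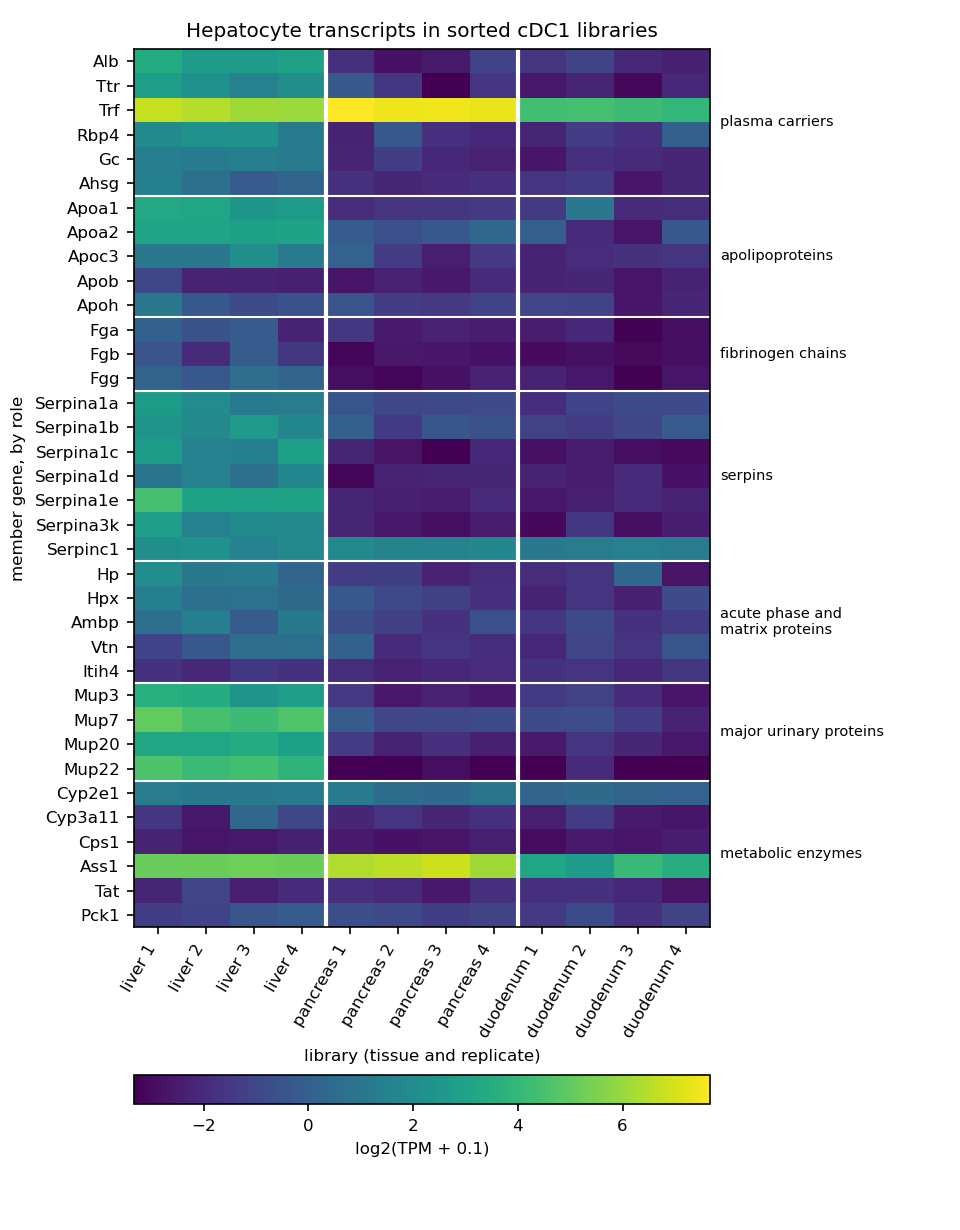
Level of each of the 36 hepatocyte genes (rows, grouped by role) in each of the 12 libraries (columns, by tissue), as log2(TPM + 0.1) in colour. Most rows are higher in the 4 liver columns than in the others, while Trf and Ass1 are highest in the pancreas columns. Apob, Fga, Fgb, Itih4, Cps1, Tat and Pck1 are below 1 TPM in all columns.

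**Figure D2:**
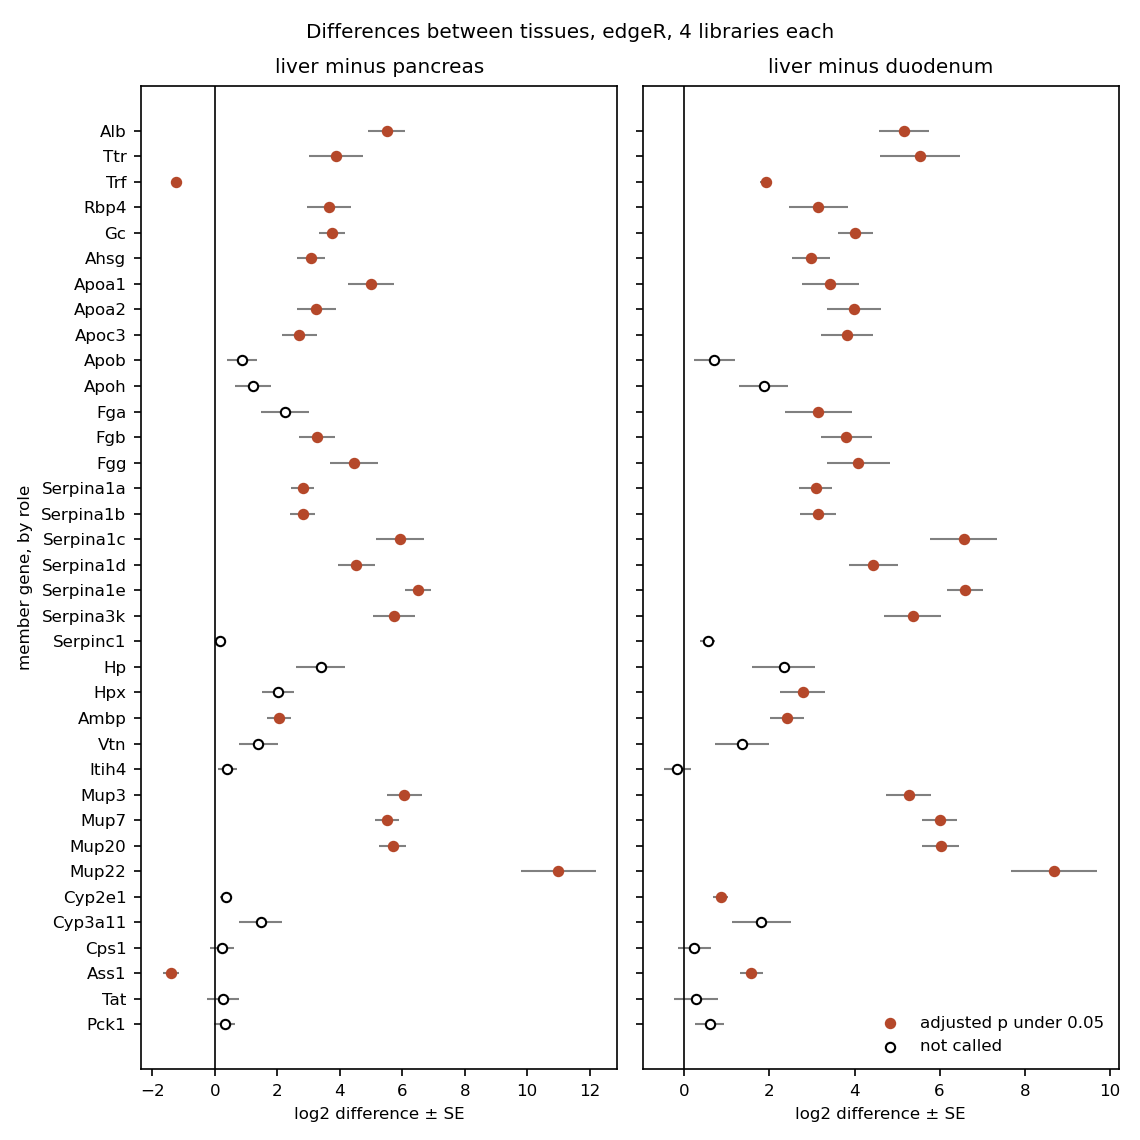
Log2 difference of each hepatocyte gene (rows, by role) in liver minus pancreas (left) and liver minus duodenum (right), with bars of 1 standard error from edgeR, 4 libraries a tissue. Filled points had an adjusted p under 0.05, and open points did not, with Trf and Ass1 to the left of 0 in the left panel only.

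All 6 carriers of the plasma were higher in liver than in duodenum, and 5 of them were higher in liver than in pancreas. Albumin (Alb, ENSMUSG00000029368), the main protein of plasma, had 10.8, 6.43, 6.74 and 7.84 TPM in liver 1 to 4. It had 0.189, 0.0442, 0.0729 and 0.365 TPM in pancreas 1 to 4, and 0.221, 0.358, 0.132 and 0.0955 TPM in duodenum 1 to 4. All liver libraries lay far above all others. Its log2 difference was 5.16 ± 0.58 (SE, n = 4 each) in liver minus duodenum (edgeR adjusted p = 7.08e-05) and 5.50 ± 0.59 in liver minus pancreas (edgeR adjusted p = 0.000142). It was -0.34 ± 0.51 in pancreas minus duodenum, where it was not called (edgeR adjusted p = 0.821). Transthyretin (Ttr), which carries thyroid hormone and retinol-binding protein, averaged 4.56 ± 1.75 TPM in liver, 0.304 ± 0.311 TPM in pancreas and 0.0852 ± 0.0539 TPM in duodenum (SD, n = 4 each), and was listed at 0 in pancreas 3. The call of Ttr in liver minus pancreas (edgeR adjusted p = 0.0429) ended when any liver library, pancreas 2, pancreas 4, duodenum 1 or duodenum 4 was left out. Retinol-binding protein 4 (Rbp4) averaged 3.85 ± 1.28 TPM in liver, 0.285 ± 0.278 in pancreas and 0.383 ± 0.380 in duodenum, and its call against pancreas ended without liver 2, liver 3, pancreas 1, pancreas 3 or pancreas 4. The vitamin D-binding protein (Gc) varied least of the carriers across liver, with 2.52, 2.13, 2.57 and 2.28 TPM in liver 1 to 4, and stayed at or below 0.313 TPM elsewhere. Fetuin-A (Ahsg), an inhibitor of mineral deposition, ran from 0.781 to 2.56 TPM in liver, from 0.127 to 0.197 in pancreas and from 0.0582 to 0.260 in duodenum.

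Of the 5 apolipoproteins, Apoa1, Apoa2 and Apoc3 were higher in liver than in both other tissues, and Apob and Apoh were called in no comparison. Apoa2, a structural protein of high-density lipoprotein, had 8.55, 8.37, 7.46 and 8.25 TPM in liver 1 to 4, against 0.550 to 1.15 in pancreas and 0.0519 to 0.915 in duodenum, and its call against pancreas ended without pancreas 1, 2 or 3. Its liver values had a coefficient of variation of 5.89%, the lowest among the 21 genes higher in liver than in both tissues. Apoa1, the main protein of the same particle, averaged 7.54 ± 1.98 TPM in liver, 0.217 ± 0.0387 in pancreas and 0.647 ± 0.901 in duodenum (SD, n = 4 each). Duodenum 2 alone, at 2.00 TPM, set that last spread. Apoc3, an inhibitor of lipoprotein lipase, reached 4.31 TPM in liver 3 and 1.99 to 2.29 TPM in the other liver libraries, and its call against pancreas ended when any liver library or pancreas 2, 3 or 4 was left out. Apob, the structural protein of very-low-density lipoprotein, had 0.417 TPM in liver 1 and 0.0961 to 0.113 TPM in liver 2 to 4, against 0.0530 to 0.156 in pancreas and 0.0523 to 0.125 in duodenum. Outside liver 1 its liver values fell within the range of the other tissues.

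The fibrinogen chains were low in every tissue. Fgg, the gamma chain, had 1.07, 0.698, 1.41 and 1.09 TPM in liver 1 to 4, and at most 0.0992 in pancreas and 0.107 in duodenum. Fgb, the beta chain, averaged 0.469 ± 0.324 TPM in liver (SD, n = 4), against 0.0153 to 0.0617 in pancreas and 0.0213 to 0.0389 in duodenum. Both were called higher in liver in either comparison, and Fgb had the widest spread in liver of the 21 genes, with a coefficient of variation of 69.0%. Fga, the alpha chain, was called against duodenum only (log2 difference 3.15 ± 0.79, edgeR adjusted p = 0.0254), and its libraries overlapped, since liver 4 was at 0.113 TPM. That call ended without liver 1, liver 3, duodenum 1 or duodenum 4.

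Of the acute phase and matrix proteins, Ambp, the precursor of alpha-1-microglobulin and bikunin, was higher in liver than in both tissues, with 0.806 to 2.61 TPM in liver, 0.197 to 0.551 in pancreas and 0.200 to 0.442 in duodenum, and its call against pancreas ended without liver 2, liver 4, pancreas 2 or pancreas 3. Hpx, which binds free haem, was called against duodenum (log2 difference 2.79 ± 0.53, edgeR adjusted p = 0.00460) and not against pancreas (2.01 ± 0.51, edgeR adjusted p = 0.0958). Haptoglobin (Hp), which binds free haemoglobin, averaged 2.35 ± 1.29 TPM in liver, 0.213 ± 0.0946 in pancreas and 0.415 ± 0.543 in duodenum (SD, n = 4 each). It was called in neither comparison, with edgeR adjusted p = 0.0552 against pancreas and 0.0759 against duodenum. Duodenum 3, at 1.22 TPM, lay above liver 4, at 1.09 TPM, and without duodenum 3 Hp was called higher in liver than in duodenum (log2 difference 3.88, edgeR adjusted p = 0.00132). Duodenum 3 also held 326 TPM of 6 erythroid genes, against 2.74 to 4.28 TPM in the other duodenum libraries, and the part of those transcripts in the Hp value was not tested. Vitronectin (Vtn) and the inter-alpha-trypsin inhibitor chain Itih4 were called in no comparison.

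Of the 7 serpins, 6 were higher in liver than in both tissues. Serpina1e (ENSMUSG00000072849), 1 of 5 mouse copies of alpha-1-antitrypsin, the inhibitor of neutrophil elastase in humans, had 20.9, 8.17, 7.72 and 8.04 TPM in liver 1 to 4. It had 0.0861 to 0.158 TPM in pancreas and 0.0642 to 0.151 TPM in duodenum. Liver 1 stood above the other liver libraries, and all 4 were far above the rest. The log2 difference was 6.59 ± 0.42 in liver minus duodenum (edgeR adjusted p = 5.03e-07) and 6.51 ± 0.42 in liver minus pancreas (edgeR adjusted p = 1.29e-06). The other 4 copies were also called higher in liver in both comparisons, with mean liver levels from 2.39 TPM (Serpina1d) to 4.79 TPM (Serpina1c). Serpina3k, the mouse kallikrein-binding protein, averaged 4.26 ± 1.94 TPM in liver, 0.0763 ± 0.0372 in pancreas and 0.0929 ± 0.103 in duodenum (SD, n = 4 each). Antithrombin (Serpinc1), the inhibitor of thrombin, differed from the rest of the group. It had 4.40, 4.86, 2.81 and 3.48 TPM in liver 1 to 4, 3.76, 2.91, 2.95 and 3.26 TPM in pancreas 1 to 4, and 2.06, 2.40, 2.64 and 2.34 TPM in duodenum 1 to 4, and was called in no comparison. In the GENCODE M21 transcripts, 33.7% of the 31-base words of Serpinc1 also occur in Zbtb37, the neighbouring gene, which had 0.939 to 2.92 TPM in liver, 0.890 to 1.72 in pancreas and 0.489 to 1.40 in duodenum.

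The 5 Serpina1 copies are shown over the 60 coding bases in which they differ most, since reads from the rest of their length can be shared between copies. The stretch codes for the reactive centre loop, the bait that sets which protease each copy inhibits. It covers bases 1101 to 1160 of the 1239 coding bases on mouse chromosome 12 (GENCODE M21 transcripts, GRCm38), 5′ to 3′, and capitals mark the 18 positions that are not the same in all 5.
Serpina1a: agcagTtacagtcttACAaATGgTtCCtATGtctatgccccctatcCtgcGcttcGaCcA
Serpina1b: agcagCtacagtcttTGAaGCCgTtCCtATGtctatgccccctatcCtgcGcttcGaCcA
Serpina1c: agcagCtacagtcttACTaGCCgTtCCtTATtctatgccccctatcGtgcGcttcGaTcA
Serpina1d: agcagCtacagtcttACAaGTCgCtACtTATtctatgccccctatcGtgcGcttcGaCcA
Serpina1e: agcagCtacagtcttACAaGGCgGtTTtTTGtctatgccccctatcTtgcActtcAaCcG
Over the whole coding sequence, pairs of copies were 96.3% to 98.5% identical, and 86 positions differed in at least 1 copy. Between 14.2% (Serpina1c) and 55.3% (Serpina1b) of the 31-base words of a copy occur in no other gene, so the split of counts between copies is less certain than their sum.

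Summed over the 5 copies, alpha-1-antitrypsin transcripts had 40.9, 21.1, 19.9 and 24.2 TPM in liver 1 to 4, against 0.937 to 1.79 in pancreas and 0.716 to 1.44 in duodenum. With the copies summed to 1 row before the test, the log2 difference was 4.72 ± 0.31 in liver minus duodenum (edgeR adjusted p = 6.52e-07) and 4.46 ± 0.31 in liver minus pancreas (edgeR adjusted p = 1.75e-06). In pancreas minus duodenum it was 0.26 ± 0.27 and not called (edgeR adjusted p = 0.711). Serpina1e made up 40.5 ± 7.61% of the family's TPM in liver (SD, n = 4), and 51.2% in liver 1. Some words of all 5 copies, 24.2% to 53.0% of them, also occur in Gm8893, whose own level was 0.0335 to 0.302 TPM over all libraries.

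All 4 major urinary proteins in the set were higher in liver than in both other tissues, and Mup7 and Mup22 had the highest mean liver levels of the 21 genes called in both comparisons. Mup7 had 32.5, 22.4, 18.8 and 25.1 TPM in liver 1 to 4, against 0.780, 0.412, 0.402 and 0.456 TPM in pancreas 1 to 4 and 0.468, 0.504, 0.305 and 0.111 TPM in duodenum 1 to 4. Mup22 had 14.2 to 24.2 TPM in liver. It was listed at 0 in pancreas 1, 2 and 4 and in duodenum 1, 3 and 4, with 0.0312 TPM in pancreas 3 and 0.145 TPM in duodenum 2. Its calls had edgeR adjusted p = 9.96e-05 in liver minus duodenum and 0.000148 in liver minus pancreas, and its fitted fold, which depends on these zeros, is not given. Mup20, also known as darcin, a male pheromone protein, averaged 9.02 ± 1.42 TPM in liver, 0.166 ± 0.0862 in pancreas and 0.124 ± 0.0744 in duodenum, and Mup3 averaged 8.83 ± 3.36 TPM in liver, 0.124 ± 0.0903 in pancreas and 0.206 ± 0.128 in duodenum (SD, n = 4 each). Log2 differences of the other 3 genes ran from 5.27 (Mup3) to 6.03 (Mup20) in liver minus duodenum and from 5.51 (Mup7) to 6.07 (Mup3) in liver minus pancreas.

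The Mup genes lie in 1 cluster on mouse chromosome 4, and many are close copies. They are shown over the 60 coding bases in which the 4 genes and Mup10 differ most, counted back from the last coding base (GENCODE M21 transcripts, GRCm38), 5′ to 3′, with Mup10 added because it shares most sequence with Mup22. Capitals mark the 25 positions that are not the same in all 5.
Mup7: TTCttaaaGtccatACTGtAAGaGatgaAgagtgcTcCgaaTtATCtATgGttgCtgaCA
Mup22: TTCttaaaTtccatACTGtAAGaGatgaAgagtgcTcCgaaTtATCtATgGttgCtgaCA
Mup10: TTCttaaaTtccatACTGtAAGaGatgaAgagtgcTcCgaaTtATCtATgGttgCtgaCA
Mup20: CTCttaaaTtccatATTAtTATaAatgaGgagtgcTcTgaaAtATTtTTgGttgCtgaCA
Mup3: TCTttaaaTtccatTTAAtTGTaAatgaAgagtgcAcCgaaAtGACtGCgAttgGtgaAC
Mup22 and Mup10 did not differ at any compared coding position, Mup7 differed from both at 4, and Mup20 and Mup3 differed from Mup7 at 46 and 76. Of the 31-base words of Mup22, 0% occur in no other gene and 95.1% occur in Mup10. The share held by no other gene was 9.98% for Mup7, 35.5% for Mup20 and 69.9% for Mup3. Mup10 itself had 0.800 to 1.45 TPM in liver, 0.219 to 0.766 in pancreas and 0.295 to 0.521 in duodenum, and 16.8% of its words occur in no other gene.

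Because the copies share many words, the 22 numbered Mup genes were also summed. The family had 109, 84.7, 86.5 and 81.3 TPM in liver 1 to 4, against 11.6, 8.14, 5.90 and 8.18 in pancreas 1 to 4 and 6.31, 12.1, 6.11 and 5.20 in duodenum 1 to 4. No liver library overlapped with another tissue, and pancreas and duodenum overlapped. The log2 difference of the summed row was 3.71 ± 0.24 in liver minus duodenum (edgeR adjusted p = 6.26e-07), 3.64 ± 0.24 in liver minus pancreas (edgeR adjusted p = 1.48e-06) and 0.07 ± 0.22 in pancreas minus duodenum (edgeR adjusted p = 0.925). The sum of the 4 genes alone gave 6.25 and 6.11 in the first pair of comparisons, since the 18 other genes held 5.18 to 10.3 TPM in pancreas and 4.96 to 10.9 TPM in duodenum, next to 24.2 to 31.9 TPM in liver. In liver, Mup7 made up 27.2 ± 4.12% of the family, Mup22 21.0 ± 2.52%, Mup20 10.1 ± 1.69% and Mup3 9.68 ± 3.16% (SD, n = 4).

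**Figure D3:**
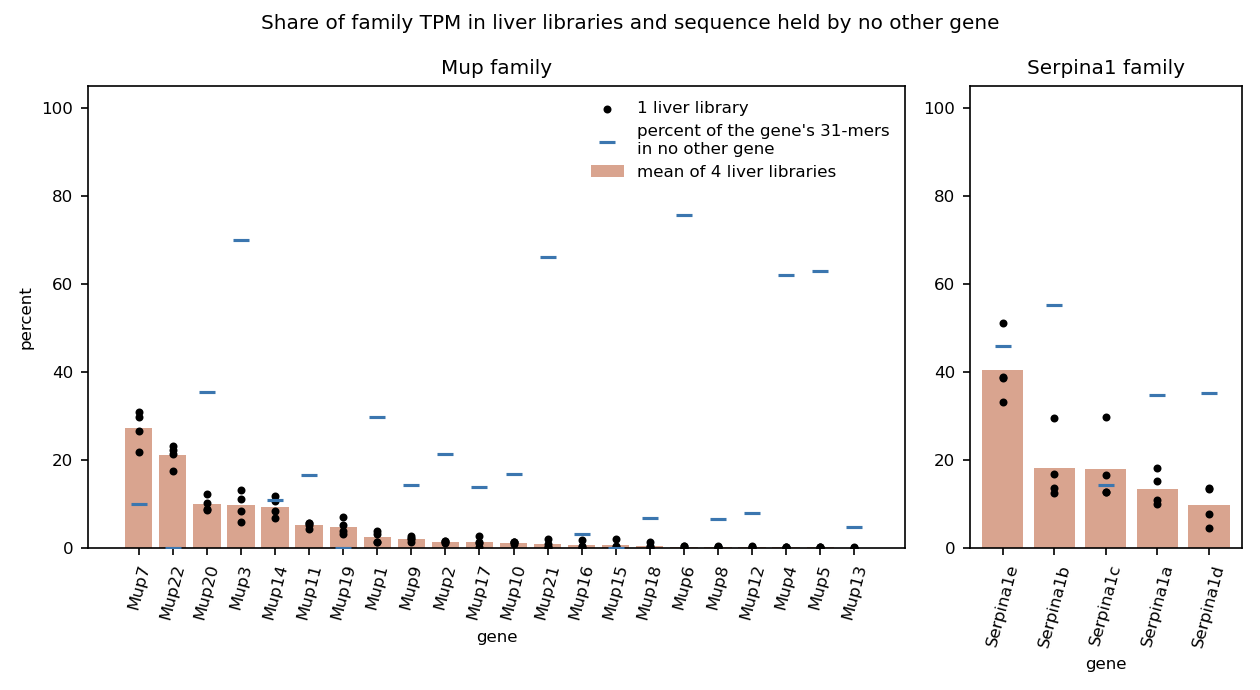
Share of the family's TPM (bars, mean of 4 liver libraries; black points, single libraries) for the 22 Mup genes (left) and 5 Serpina1 genes (right), with blue dashes for the percent of a gene's 31-base words in no other gene. Mup7 and Mup22 hold the largest shares of the Mup family, and their dashes are at 9.98% and 0%.

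**Figure D4:**
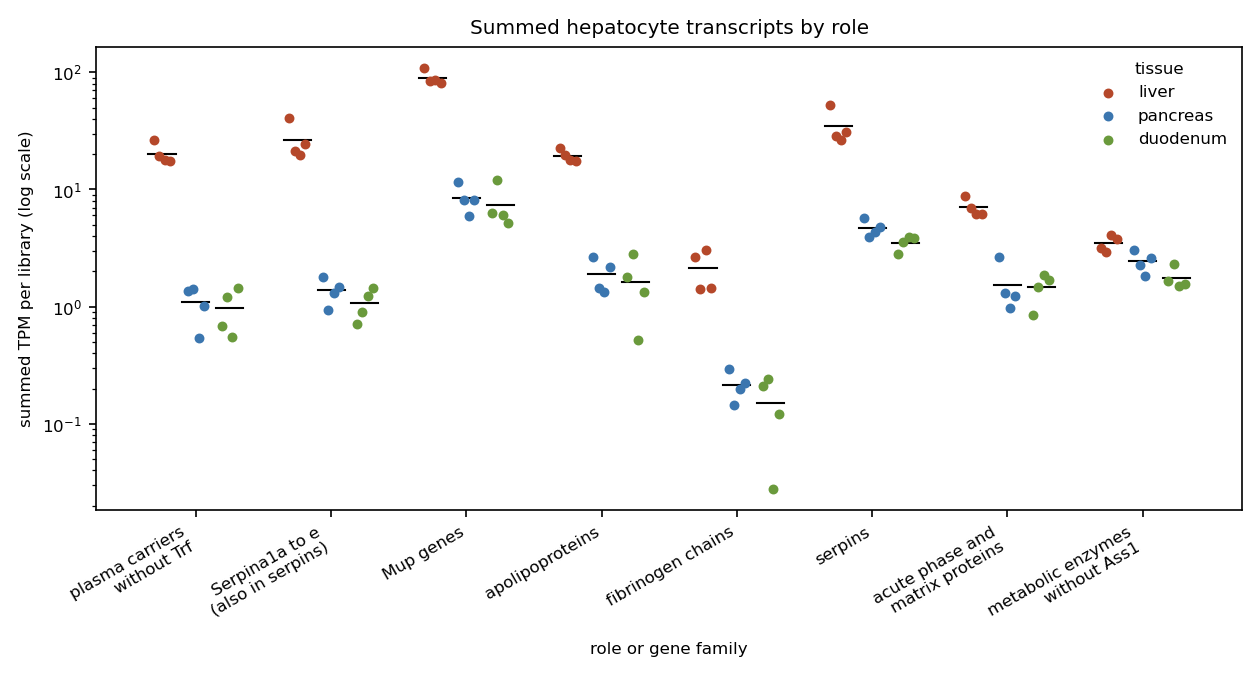
Summed TPM per library (log scale) of the hepatocyte genes by role, with Trf and Ass1 left out, all 22 numbered genes in the Mup group, and the 5 Serpina1 genes also shown alone, for liver, pancreas and duodenum. Points are libraries and lines are means of 4, and liver libraries lie above all others in each group except the metabolic enzymes, where liver and pancreas overlap.

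Trf and Ass1 had another order of tissues, with pancreas above liver and liver above duodenum. Transferrin (Trf, ENSMUSG00000032554), the iron carrier of plasma, had 103, 86.4, 69.2 and 64.4 TPM in liver 1 to 4, 204, 168, 175 and 166 TPM in pancreas 1 to 4 and 20.3, 21.6, 18.6 and 15.6 TPM in duodenum 1 to 4. The 3 tissues did not overlap. The log2 difference was 1.93 ± 0.14 in liver minus duodenum (edgeR adjusted p = 1.89e-06), -1.23 ± 0.14 in liver minus pancreas (edgeR adjusted p = 0.000255) and 3.16 ± 0.15 in pancreas minus duodenum (edgeR adjusted p = 3.31e-08). Ass1 (ENSMUSG00000076441), the urea cycle enzyme that also regenerates arginine for nitric oxide synthesis, had 35.8, 36.7, 37.7 and 37.0 TPM in liver 1 to 4. It had 81.2, 96.8, 114 and 69.1 TPM in pancreas 1 to 4 and 8.95, 6.57, 16.7 and 11.5 TPM in duodenum 1 to 4. Its libraries did not overlap between tissues, and it varied little within liver. Its log2 difference was 1.58 ± 0.27 in liver minus duodenum (edgeR adjusted p = 0.00204), -1.40 ± 0.27 in liver minus pancreas (edgeR adjusted p = 0.0171) and 2.98 ± 0.28 in pancreas minus duodenum (edgeR adjusted p = 1.00e-05). The call against pancreas ended when any liver library or pancreas 3 was left out. Of the words of Trf, 60.6% also occur in the transcript Gm20425, not analysed here, and 43.1% of those of Ass1 occur in Gm5424, which had 0.0257 to 0.401 TPM over all libraries.

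Of the other 5 metabolic enzymes, 1 was called in a comparison. Cyp2e1, which oxidises ethanol, had 2.08 to 2.41 TPM in liver, 1.27 to 2.16 in pancreas and 0.988 to 1.29 in duodenum, and was called in liver minus duodenum (log2 difference 0.85 ± 0.18, edgeR adjusted p = 0.00796) but not in liver minus pancreas (0.35 ± 0.18, edgeR adjusted p = 0.609). Cps1, the first enzyme of the urea cycle and one of the most abundant proteins of liver mitochondria, had 0.0534 to 0.112 TPM in liver, 0.0451 to 0.0917 in pancreas and 0.0273 to 0.0832 in duodenum. Tyrosine aminotransferase (Tat), phosphoenolpyruvate carboxykinase (Pck1), the control enzyme of gluconeogenesis, and the drug-metabolising Cyp3a11 were not called either, with highest values of 0.398, 0.806 and 1.14 TPM, each in a liver library. The log2 difference of Cps1 in liver minus duodenum was 0.24 ± 0.39 (edgeR adjusted p = 0.838), and that of Tat was 0.28 ± 0.51 (edgeR adjusted p = 0.858). Cps1 had 33.9 to 171 estimated counts per library.

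The 36 genes thus fell into 21 called higher in liver than in both tissues, 5 called higher than in duodenum only (Trf, Fga, Hpx, Cyp2e1 and Ass1), and 10 called in no comparison (Apob, Apoh, Serpinc1, Hp, Vtn, Itih4, Cyp3a11, Cps1, Tat and Pck1). Of these 10, Hp, Apoh, Serpinc1 and Cyp3a11 were called higher in liver than in duodenum under some other settings, Hp under 6 of 21, Serpinc1 under 4 of 22, Apoh under 3 of 21 and Cyp3a11 under 2 of 21. The 21 include the 4 Mup and 5 Serpina1 genes, close copies that can share reads. Among the 21, mean levels ran from 0.469 TPM (Fgb) to 24.7 TPM (Mup7) in liver, with a median of 4.47 TPM. Their means stayed at or below 0.804 TPM in pancreas and 0.647 TPM in duodenum. Across the 36 genes, the log2 difference fell with the log10 length of the longest coding transcript (Pearson's r = -0.58, Spearman's rho = -0.61). That is a description across genes that share the same libraries. The Mup and Serpina1 copies entered it as separate genes, and Mup22 entered with its fitted fold, which depends on zeros. Called genes had a median length of 1491.5 bases, and genes not called one of 2518 bases. The longest, Apob at 13934 bases and Cps1 at 5555 bases, were among those not called, while Fgb at 3810 bases was called.

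Within liver, the libraries ranked differently from gene to gene. Of the 21 genes called against both tissues, 11 were highest in liver 1, 7 in liver 3, 2 in liver 4 and 1 in liver 2, and 11 were lowest in liver 3, 6 in liver 2, 4 in liver 4 and 0 in liver 1. Their coefficients of variation over the 4 libraries had a median of 34.3%. Set against Alb in the same library, Mup7 stayed between 2.79 and 3.49 times the Alb level and Apoa2 between 0.794 and 1.30 times. Rbp4 ran from 0.274 to 0.735 times the Alb level, Apoc3 from 0.190 to 0.639 times and Fgb from 0.0236 to 0.123 times. The widest of these ratios, that of Fgb, had its lowest value in liver 2 and its highest in liver 3.

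A further 83 genes of hepatocytes were followed in 4 lists. Over all genes tested, 3.37% were called higher in liver minus duodenum and the median log2 difference was 0.10, while in liver minus pancreas 0.426% were called higher and the median was 0.01. Of 33 other secreted proteins, 5 were higher in liver than in duodenum and 0 lower, with a median log2 difference of 0.70. Apoc1, an apolipoprotein of lipoprotein particles, led them with 6.48, 4.87, 1.53 and 4.42 TPM in liver 1 to 4, against 0.0620 to 0.576 in pancreas and 0.0664 to 0.216 in duodenum (log2 difference in liver minus duodenum 4.77 ± 0.65, edgeR adjusted p = 0.000331). Kininogen (Kng1), the precursor of bradykinin, had 0.731 to 1.14 TPM in liver, 0.193 to 0.310 in pancreas and 0.139 to 0.248 in duodenum. C3, the central protein of complement, had 0.347 to 0.818 TPM in liver, 0.269 to 0.654 in pancreas and 0.132 to 0.307 in duodenum, and its call ended without liver 1, liver 3, duodenum 3 or duodenum 4. In liver minus pancreas, Apoc1 and Kng1 were higher and Serpinf2, which inhibits plasmin, was lower.

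Of 28 other hepatocyte enzymes, 8 were higher in liver than in duodenum and 0 lower, with a median log2 difference of 0.76. Fabp1, the fatty acid-binding protein of liver, had 9.78, 11.9, 9.27 and 11.1 TPM in liver 1 to 4, against 0.0195 to 0.672 in pancreas and 0.149 to 1.86 in duodenum, and was higher in liver than in pancreas too (log2 difference 4.81 ± 0.81, edgeR adjusted p = 0.00736). The sterol enzymes Cyp27a1 and Cyp8b1, which hydroxylate cholesterol side chains and bile acid precursors, were also called higher in liver than in duodenum. Cyp27a1 had 136 to 162 TPM in liver, 92.6 to 125 in pancreas and 59.6 to 97.6 in duodenum, and its call against duodenum (log2 difference 0.68 ± 0.17, edgeR adjusted p = 0.0206) ended when liver 1, liver 2, liver 3, liver 4, duodenum 1 or pancreas 1 was left out. Cyp8b1 had 26.2 to 32.5 TPM in liver, 16.8 to 21.3 in pancreas and 0.477 to 1.25 in duodenum. In liver minus pancreas, Fabp1 and Ugt2b5 were higher.

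Of 10 surface proteins and transporters, 0 were called in liver minus duodenum, where their median log2 difference was 0.60, or in liver minus pancreas, and Slc10a1, the bile acid uptake transporter, was lower in pancreas than in duodenum. The asialoglycoprotein receptor chain Asgr1 had 0.0636 to 1.29 TPM in liver, 0.107 to 0.248 in pancreas and 0.0972 to 0.218 in duodenum. Of 12 transcription factors, with a median log2 difference of 0.20 in liver minus duodenum, only Cebpa, which is also a myeloid factor, was called there. It had 2.42 to 3.16 TPM in liver, 2.93 to 5.49 in pancreas and 0.446 to 1.42 in duodenum, and was also called higher in pancreas than in duodenum (edgeR adjusted p = 0.00224). Its call in liver minus duodenum (log2 difference 1.40 ± 0.33, edgeR adjusted p = 0.0177) ended without liver 1, liver 2, liver 3 or duodenum 1. Hnf4a, a factor that defines hepatocytes, had 0.228 to 0.519 TPM in liver, 0.208 to 0.543 in pancreas and 0.0610 to 0.714 in duodenum.

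Transcripts of other cells were present at levels that also differed between tissues. The 12 Kupffer cell genes, those of the resident macrophages of liver, summed to 20.7 to 27.8 TPM in liver, 19.7 to 27.4 in pancreas and 7.59 to 11.1 in duodenum, with Csf1r and C1qb, which other macrophages also express, the most abundant in liver. In liver minus duodenum, Timd4, Cd5l and Csf1r were called higher and Adgre1 lower. In liver minus pancreas, 0 of the 12 were called higher and Timd4 was called lower (log2 difference -2.03 ± 0.39, edgeR adjusted p = 0.0191). Clec4f, which marks Kupffer cells, had a mean of 0.348 TPM in liver, 0.0929 in pancreas and 0.110 in duodenum. Among liver endothelium genes, Dnase1l3 and Fcgr2b, which dendritic cells also express, made up most of a sum of 862 to 1201 TPM in liver, 334 to 426 in pancreas and 833 to 1392 in duodenum. The 12 acinar genes of the pancreas, Cela2a and Prss2 the highest, summed to 4.56 to 6.95 TPM in liver, 983 to 6081 in pancreas and 3.57 to 14.5 in duodenum, and all 12 were called lower in liver than in pancreas. Sums of 7 bile duct genes were 6.52 to 13.9 TPM in liver, 26.3 to 35.5 in pancreas and 13.6 to 25.5 in duodenum, with Epcam the most abundant gene in pancreas. Stellate cell and fibroblast genes summed to 2.72 to 4.78 TPM in liver, 2.86 to 22.7 in pancreas and 2.54 to 5.60 in duodenum. Islet genes summed to 4.56 to 5.48 TPM in liver, 18.7 to 32.4 in pancreas and 3.54 to 5.57 in duodenum. Neutrophil genes summed to 3.15 to 3.95 TPM in liver, 2.57 to 16.3 in pancreas and at most 19.3 in duodenum. Intestinal epithelium genes summed to 2.31 to 3.86 TPM in liver, 2.75 to 5.24 in pancreas and 1.82 to 5.17 in duodenum. The part of any of these transcripts in the hepatocyte values was not tested.

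**Figure D5:**
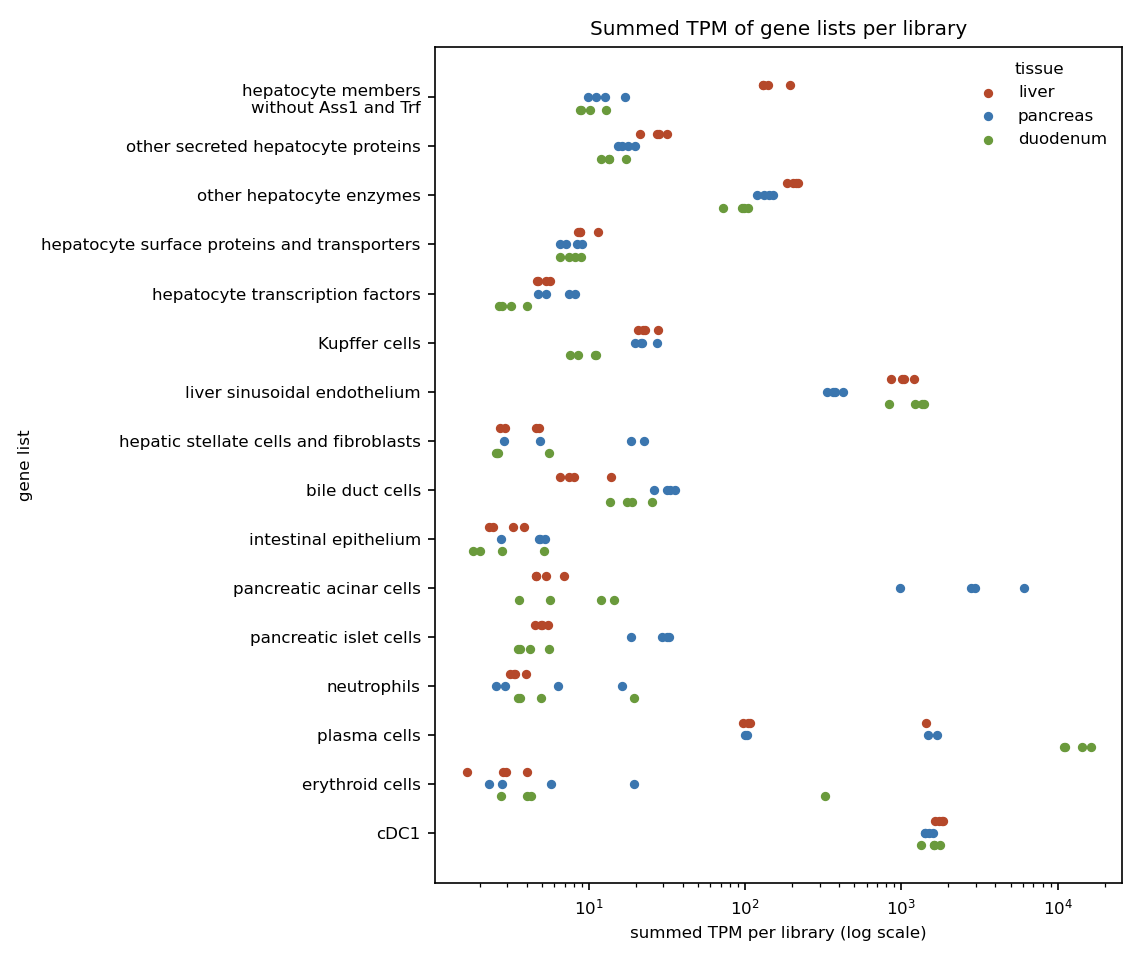
Summed TPM per library (log scale) of the hepatocyte genes without Ass1 and Trf and of lists for other hepatocyte genes and other cells, for liver, pancreas and duodenum. Points are libraries. The hepatocyte genes without Ass1 and Trf stand apart in liver, as do the other secreted proteins and other enzymes. Surface proteins and transporters, and transcription factors, overlap between liver and pancreas. Acinar and islet genes stand apart in pancreas and plasma cell genes in duodenum. The cDC1 genes of duodenum overlap with those of both other tissues.

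The genes whose levels followed the hepatocyte genes most closely were sought among 17142 genes with a mean of at least 1 TPM in liver, by Pearson's r of log2(TPM + 0.1) with the log2 sum over the 12 libraries. For the sum without Ass1, in which Trf is the largest term, the closest genes of those compared were Itgal (r = 0.996), Spata13, Rhox8, Csf2rb2, Gramd3, Gpr35, Gcsam and Il5ra (r = 0.984). Itgal, the integrin chain of LFA-1, averaged 24.3 TPM in liver, 19.5 in pancreas and 1.72 in duodenum. For the sum without Ass1 and Trf, chosen after these values were seen, the closest of those compared were Id3 (r = 0.978), Cacna1e, Cd34, Sema4c, Gm36951, Gm12551, Zbtb4 and Olfr1437 (r = 0.943). Id3, an inhibitor of E protein transcription factors, had 170 to 184 TPM in liver, 0.172 to 1.33 in pancreas and 0.394 to 1.17 in duodenum. Over 12 libraries in 3 tissues, such values describe a shared order of tissues.

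Start-site sequences were compared because most of the 36 genes moved together. RefSeq promoters, from 250 bases before to 50 bases after a start, were matched to 28 of the 36 genes (GRCm38.p6), and 6 motifs described here were searched on both strands, the first kept for display after the counts were seen. The C/EBP form TTGCNNAA was found for 13 of the 28 genes, against 12.2% of all 27025 genes and 10.8% of all 32851 promoters. The TATA box TATAAA was found for 7 of the 28, against 15.7% of all genes, and the HNF4 core CAAAG for 23, against 57.4%. A looser C/EBP form was found for 14, against 22.9%, the longer HNF4 site CAAAGTCCA for 1, against 0.555%, and a direct repeat (DR1) of the nuclear receptor half-site for 0, against 0.0185%. CAAAG is part of CAAAGTCCA and of the direct repeat, and a stretch can match both C/EBP forms. The genes with TTGCNNAA included Serpina1a, Serpina1b, Serpina1d and Serpina1e, which are close copies, and also Apob and Serpinc1, called in no comparison. The set was chosen as hepatocyte genes whatever their levels here, so these shares say nothing about the libraries. A match is a description of letters and not a shown binding site. The 250 bases before the start of Alb at chr5:90460620-90460869 (plus strand) and of Serpina1e at chr12:103956898-103957147 (minus strand) are printed 5′ to 3′, because both genes were among the highest plasma proteins in liver and their promoters hold the C/EBP form TTGCNNAA on 1 of the strands, in capitals.
Alb: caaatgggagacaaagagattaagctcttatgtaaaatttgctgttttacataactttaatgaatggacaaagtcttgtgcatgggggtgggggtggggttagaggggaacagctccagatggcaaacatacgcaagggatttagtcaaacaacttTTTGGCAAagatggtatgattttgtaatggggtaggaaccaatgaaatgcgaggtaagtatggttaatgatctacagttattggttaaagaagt
Serpina1e: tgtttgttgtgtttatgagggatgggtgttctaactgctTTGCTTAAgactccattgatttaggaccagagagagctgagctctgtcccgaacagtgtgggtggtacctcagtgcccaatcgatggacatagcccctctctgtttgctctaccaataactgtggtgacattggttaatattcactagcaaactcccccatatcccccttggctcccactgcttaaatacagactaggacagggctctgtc
In Alb, the C/EBP form lay 94 to 87 bases before the start. In Serpina1e, it lay 211 to 204 bases before the start.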

How the data were processed

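RNA from sorted cDC1 of 3 tissues was sequenced as 12 libraries. Per the submitters' processing notes, kallisto (version not given) and GRCm39 were used. No label names the index, annotation release or strandedness. For 55401 genes the authors deposited estimated counts and TPM. The deposited estimated counts, after rounding, went into edgeR 4.0.16 under R 4.3.3 (filterByExpr with a minimum count of 10, TMM, 1 robust quasi-likelihood model of all 12 libraries, Benjamini-Hochberg over 44624 genes, called under 0.05). SE is the absolute log2 difference over the square root of F. The test was tried on simulated data first. Levels are the deposited TPM. Alternatives used DESeq2 1.42.0, limma 3.58.1 on log2 TPM, other scalings and filters, and libraries left out. Shared 31-base words came from GENCODE M21 and promoters from RefSeq, both of another build (GRCm38), so no coordinates were moved. The 36 genes are all named. Of other hepatocyte lists the 3 genes of highest liver TPM among those called in liver minus duodenum, and of other lists the 2 highest in the tissue with the highest sum, are candidates for naming. Serpinf2, Ugt2b5, Slc10a1, Asgr1, Hnf4a, Clec4f and Epcam were chosen after values were seen. Results for a few genes are not reported here. The genes and lists were chosen with earlier results of these data known.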

Additional observations from a re-analysis of the deposited data

Results flagged for a closer look

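In 18 of 120 groups of 4 libraries checked, 1 library stood apart by Dixon's test at 95%, where chance alone flags about 1 in 20. In liver, these were liver 1 for Serpina1e (20.9 TPM, against 7.72 to 8.17 in the others), Apoh (2.04), Apob (0.417) and the sum of the hepatocyte genes without Ass1 and Trf (194), and liver 3 for Apoc3 (4.31). In pancreas, they were pancreas 1 for Vtn (0.945 TPM), Mup7 (0.780), Fga (0.244), Serpina1d (low, at 0.0120) and the sum without Ass1 (221), and pancreas 2 for Rbp4 (0.700) and Gc (0.313). In duodenum, they were duodenum 2 for Apoa1 (2.00 TPM), Cyp3a11 (0.283) and the Mup family sum (12.1), and duodenum 3 for Hp (1.22). The other cases were Mup22 in pancreas 3 (0.0312 TPM) and in duodenum 2 (0.145 TPM), where the other libraries of the tissue were listed at 0, so any value above 0 stands apart and neither counts against the 1 in 20.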

How the results depend on the processing

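Hepatocyte genes called in liver minus duodenum numbered 19 to 29 over all settings, against 26 as reported, and all were higher in liver. The 19 came with genes of a mean of at least 1 TPM. That filter left fewer of the 36 genes to test, and each gene left was called. Without 1 library at a time, the hepatocyte genes called in liver minus duodenum numbered 25 to 27. They numbered 18 to 24 in liver minus pancreas (against 23) and 2 to 3 in pancreas minus duodenum (against 2). Without liver 2, pancreas 3 and pancreas 4, 11 were called in liver minus pancreas, and calls over all genes were 2069 in liver minus duodenum (against 3265), 177 in liver minus pancreas (against 494) and 1712 in pancreas minus duodenum (against 3437). DESeq2 called 5133 genes in liver minus duodenum, 1171 in liver minus pancreas and 4 hepatocyte genes in pancreas minus duodenum. Liver minus pancreas gave 820 calls with library totals, 1007 with genes of at least 1 TPM and 343 to 749 without 1 library at a time. Over all genes, leaving out 1 library gave 2397 to 4807 calls in liver minus duodenum and 2596 to 4716 in pancreas minus duodenum. The Mup family in pancreas minus duodenum ran from -0.12 to 0.29 without 1 library at a time, changing sign without pancreas 1 (-0.12), duodenum 4 (-0.06) or duodenum 3 (-0.00839). Signs also changed in liver minus duodenum for Apob without liver 1 (-0.10, in a range to 0.86), Cps1 without duodenum 1 (-0.00378, in a range to 0.44) and Tat without liver 2 (-0.39), duodenum 4 (-0.02) or the 3 libraries (-0.39), in a range to 0.46 without 1 library at a time, none of them called. The log2 ratio of sums without Ass1, 2.96 in liver minus duodenum and 0.25 in liver minus pancreas by TPM, was 2.28 and -0.46 by CPM, which is not scaled for length. Without Trf too, it was 3.86 and 3.56 by TPM, and 2.99 and 2.77 by CPM. The causes of these shifts were not tested. Of the values for single genes, 1378 kept their direction and call, 73 lost the call and 15 gained it. In liver minus duodenum, Hp gained it with library totals, DESeq2, both limma fits and the replicate block and without duodenum 3, Serpinc1 with library totals, genes of at least 1 TPM and both limma fits, Apoh with DESeq2, limma on log2(TPM + 0.1) and the replicate block, and Cyp3a11 with DESeq2 and without liver 2. Correlations of same-numbered libraries ran from -0.04 to 0.09, and those of different-numbered libraries from -0.13 to 0.12. Such values cannot tell whether replicate numbers pair the libraries. With the replicate block, 28, 22 and 2 hepatocyte genes were called in liver minus duodenum, liver minus pancreas and pancreas minus duodenum.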
